A study of Mus musculus with 168 samples.

Results

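Mir320, Mir484, Mir877 and Mir702 are 4 mouse microRNAs whose hairpins are known to be made without the nuclear enzyme Drosha, either at the start of a transcript or by splicing of a short intron. They were picked by name: a row of the small RNA count table belonged to the set when the GENCODE vM21 annotation of genome build GRCm38 gave its Ensembl transcript 1 of these names. All 4 were found, among 1626 transcripts in all and among the 329 microRNAs that were tested, and all 4 had enough reads to enter every test. Drosha itself, pre-microRNA hairpins and host mRNAs were not measured in these small RNA libraries, so the name of the set is background and was not checked by them. The study also refers to mRNA profiles of the same animals, which were not used here.

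The libraries came from the cortex of C57BL/6 mice at 2, 6 and 10 months of age, with 8 mice (4 female, 4 male) per genotype and age and 168 libraries in all. Q20, Q80, Q92, Q111, Q140 and Q175 mice were heterozygous knock-in animals, with 1 normal *Htt* allele and 1 allele that carries human *HTT* exon 1 with the CAG length of the name, and wild type (WT) mice were littermates of the Q20 line. The Q175 line arose from the Q140 line by spontaneous expansion of the repeat, so these 2 lines share a founder allele. In each line, heterozygous males were bred to females of the substrain C57BL/6J. Q20 and WT mice served as controls at 2 and 10 months and Q20 mice alone at 6 months. The 6-month WT libraries were left out because their names follow another pattern and their Mir320 and Mir484 levels stood apart from the other 6-month libraries. That choice used the values of 2 members under study, and the results below depend on it. With these libraries added, the meta-analysis of CAG length called Mir484 and Mir877 but not Mir320, with 33.9% of all microRNAs called. The 6-month WT libraries are described separately. At 2 and 10 months, 26 of 28 sets of same-sex, same-age mice of a genotype carried the name of a single cage. No mutant mouse of these ages carried the cage name of a control, so mutant genotype and cage cannot be told apart. Standard errors and p-values treat mice of a cage as independent. These are bulk cortex libraries, in which fewer cells of a type and less RNA per cell cannot be told apart.

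Most microRNAs are cut out of long nuclear transcripts by Drosha with its partner DGCR8, exported, and then cut by Dicer to the mature form. Mirtrons take another way: the spliced-out intron is itself the hairpin, which goes to Dicer after the lariat is opened. Mir320 and Mir484 belong to a different group, hairpins that start at a promoter, of which the Mir320 hairpin is known as a short capped transcript that goes straight to Dicer.

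The 2 promoter-linked hairpins lay beside start sites in the annotation. Mir320 (ENSMUST00000083594, 82 bases) is annotated at chr14:70443510-70443591 on the plus strand, 63 bases upstream of the start of Polr3d, which codes for a subunit of RNA polymerase III and runs on the opposite strand. Mir484 (ENSMUST00000093566, 67 bases) is annotated at chr16:14159626-14159692 on the plus strand, 3583 bases upstream of the annotated start of transcript Nde1-201 on the same strand. On the minus strand, Marf1-201 starts 359 bases away from it, and 19 bases of the Mir484 hairpin overlap an exon of Marf1-202. The 2 intronic hairpins lie within coding genes on the host's own strand. Mir877 (ENSMUST00000104738, 85 bases, chr17:35960730-35960814, minus strand) filled intron 12 of the 22 introns of Abcf1-201 from its first to its last base. Mir702 (ENSMUST00000102285, 109 bases, chr5:136991433-136991541, plus strand) lay at intron 13 of the 18 introns of Plod3-201, starting 9 bases before the intron and ending 2 bases before its end.

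The mature sequences below show what separates the members. They are given 5' to 3' as RefSeq lists them on GRCm38.p6, for 3 of the 4 members, with the seed (bases 2 to 8, the part that pairs with targets) in capitals.
miR-484: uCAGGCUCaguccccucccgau
miR-877-5p: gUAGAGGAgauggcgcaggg
miR-877-3p: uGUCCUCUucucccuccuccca
miR-702-5p: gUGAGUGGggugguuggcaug
miR-702-3p: uGCCCACCcuuuaccccgcucc
None of these 5 seeds was shared between members. The seed UGAGUGG of miR-702-5p had 1 other bearer among the 1738 mature sequences of the table, miR-3102-5p, from another intron-filling hairpin: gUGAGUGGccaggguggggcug. Both 5' arms begin with the bases GU that open the intron. The counts are per hairpin transcript and do not separate the 5' from the 3' arm.

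The hairpins of the 2 intronic members show the difference between an annotated hairpin that matches its intron exactly and one that does not. Bases that lie within the host intron are in capitals.
Mir877: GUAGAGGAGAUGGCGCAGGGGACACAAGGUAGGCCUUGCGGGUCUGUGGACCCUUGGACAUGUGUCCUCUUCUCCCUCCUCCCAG
Mir702: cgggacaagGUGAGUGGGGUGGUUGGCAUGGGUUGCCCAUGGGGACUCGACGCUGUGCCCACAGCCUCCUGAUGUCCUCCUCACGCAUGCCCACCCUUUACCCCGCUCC
The Mir877 hairpin opens with GU and closes with AG, the letters of both intron ends. The annotated Mir702 hairpin takes 9 bases of the exon before the intron, and its mature 5' arm starts at the first base of the intron. Of the 4 further microRNAs listed with them as other Drosha-independent hairpins of the cortex, Mir1224 (Vwa5b2), Mir1981 (Marc2) and Mir3102 (Arhgef17) each filled an intron exactly, at 85, 82 and 104 bases. Mir1839, the other one, had no transcript in the table.

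**Figure D1:**
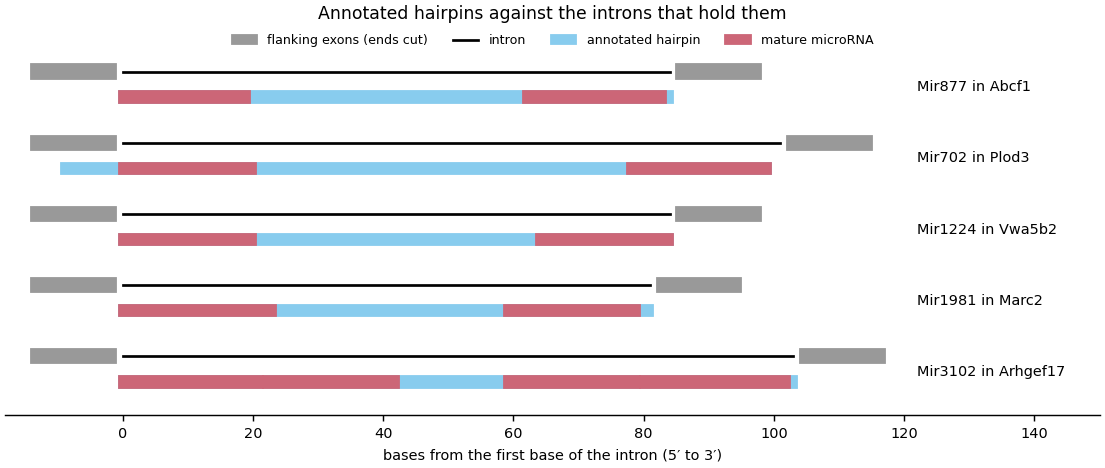
Position of each annotated hairpin (light bar) and its mature microRNAs (red) against the host intron (black line) and its flanking exons (grey, ends not to scale), in bases from the first intron base, 5' to 3'. The hairpins of Mir877, Mir1224, Mir1981 and Mir3102 cover their introns exactly, and that of Mir702 starts 9 bases before its intron and stops 2 bases short of its end.

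Library totals ran from 2041741 to 11646287 reads on transcripts, with a median of 4810487. At this depth a library held 969 to 4627 reads of Mir484, 370 to 2539 of Mir320 and 75 to 682 of Mir877, but 1 to 21 of Mir702. Counting error alone gives a coefficient of variation of 2.14% at the median count of Mir484, 3.06% for Mir320, 6.23% for Mir877 and 35.4% for Mir702, and it limits every statement on Mir702. These percentages cover counting error only. Levels below are TMM-normalized CPM, in which each count is scaled by the total of its library and by a composition factor.

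Mir484 was the most abundant of the 4, at 445 ± 46.8 CPM (SD, n = 160 libraries, without the 6-month WT mice), followed by Mir320 at 220.2 ± 20.6, Mir877 at 53.6 ± 6.39 and Mir702 at 1.78 ± 0.745. Among the 329 microRNAs they ranked 93, 126, 173 and 266 by mean level. Per base of the annotated hairpin the order was the same, at 6.64 CPM for Mir484, 2.69 for Mir320, 0.630 for Mir877 and 0.0163 for Mir702. No library of these 160 broke that order: the lowest Mir484 value was 316 CPM and the highest Mir320 value 282 CPM, the lowest Mir320 value was 177 and the highest Mir877 value 66.6, and the lowest Mir877 value was 35.1 and the highest Mir702 value 3.52.

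The spread between mice of an age was far wider for Mir702 than for the 3 abundant members. The coefficient of variation over the libraries of 2, 6 and 10 months was 7.61%, 7.43% and 7.43% for Mir320, 11.8%, 7.49% and 9.61% for Mir484 and 10.8%, 11.2% and 8.02% for Mir877. For Mir702 it was 31.9%, 46.9% and 43.8%, near the counting error given above. Mean levels of the 20 groups without 6-month WT mice ran from 193 to 250.1 CPM for Mir320, from 402 to 479 for Mir484, from 43.9 to 58.6 for Mir877 and from 1.16 to 2.28 for Mir702.

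**Figure D2:**
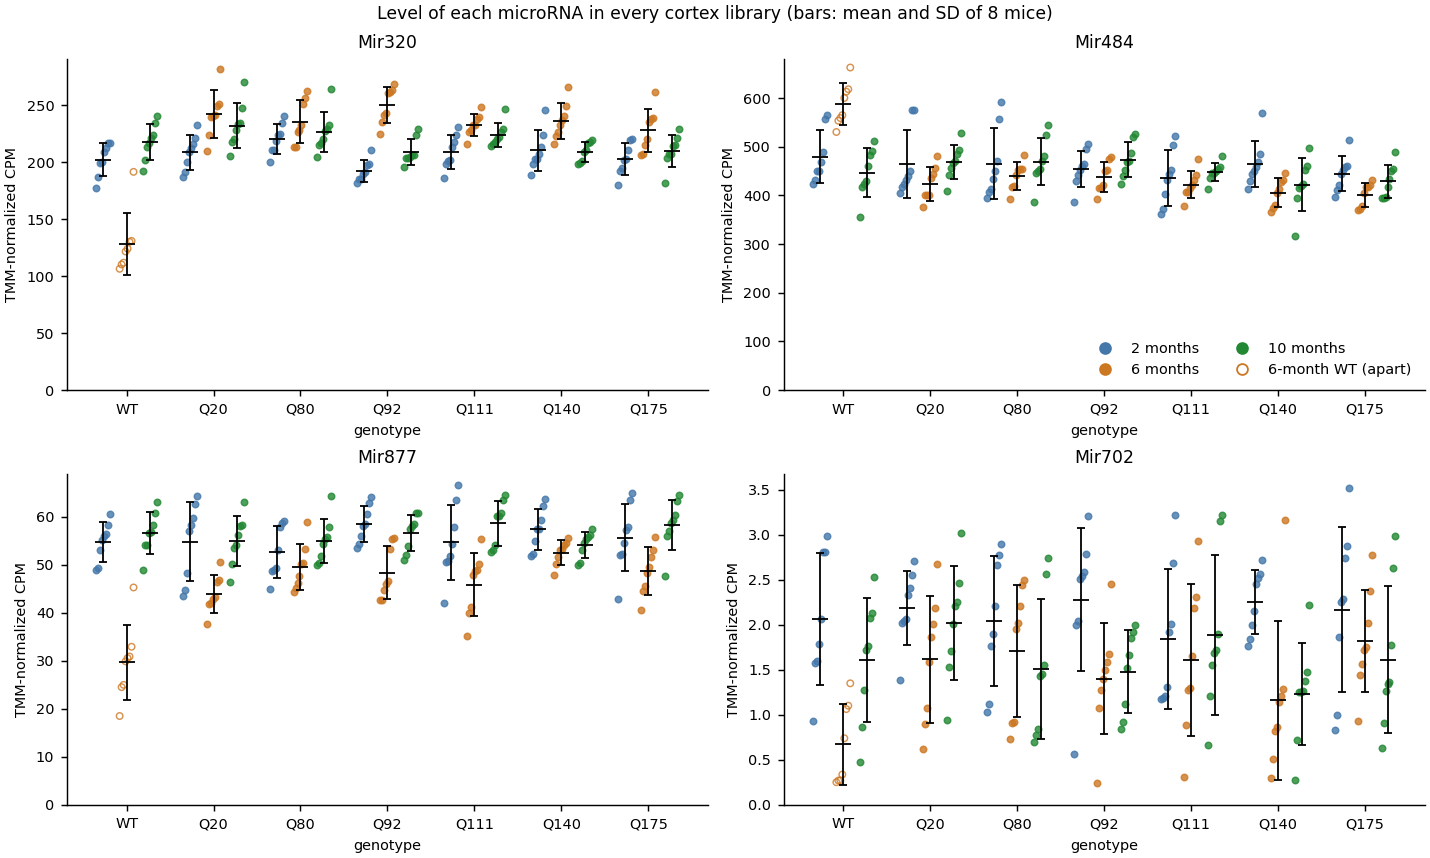
TMM-normalized CPM (vertical axes, from 0) of each member in all 168 libraries by genotype, coloured by age, with the mean and SD of the 8 mice of each group. Open symbols are the 6-month WT libraries, in which Mir320 lies at 107 to 192 CPM and Mir484 at 530.4 to 663 CPM, outside the range of every other 6-month library.

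The 8 libraries labelled as 6-month WT mice stood apart from the other 6-month libraries in Mir320 and Mir484, which was part of the reason to leave them out. Their library names follow the pattern used at 2 and 10 months and not that of the other 6-month libraries, and the study's methods do not list them, so library origin and genotype cannot be told apart. Mir320 had a lowest, median and highest value of 107, 123 and 192 CPM in them, against 209.7, 241 and 282 CPM in the 6-month Q20 mice. Its group means were 128 ± 27.1 and 242 ± 20.95 CPM (SD, n = 8 each), a log2 ratio of -0.92. Mir484 went the other way, with 530.4, 583 and 663 CPM against 377, 418 and 481 CPM, means of 588 ± 43.4 and 424 ± 35.04, and a log2 ratio of 0.47. For both, the 8 WT values lay outside the range of all 48 other 6-month libraries, as they did for 9.48% of the 327 microRNAs detected at that age.

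Mir877 was also lower in most 6-month WT libraries, at 18.5, 30.2 and 45.3 CPM, while the Q20 mice had 37.6, 43.1 and 50.5 CPM, and the groups overlapped through 1 WT library. Mir702 had 0.250, 0.537 and 1.35 CPM in them and 0.620, 1.73 and 2.68 CPM in the Q20 mice, with overlap. The median log2 ratio of WT to Q20 over the 225 microRNAs with a mean of at least 10 CPM in either group was -0.04. The WT and Q20 ranges did not overlap for 10.4% of microRNAs with WT below and for 8.26% with WT above. The ratio of Mir484 reads to Mir320 reads in a library, which no scaling can change, was 2.89 to 6.00 with a median of 4.88 in the 6-month WT libraries. It was 1.42 to 3.004 with a median of 1.99 in the other 160. WT mice of the other ages did not share these levels, with Mir320 means of 203 ± 14.4 CPM at 2 months and 218 ± 15.8 CPM at 10 months (SD, n = 8 each). The 1 library that held the highest values of the group for Mir320 and Mir877 was female replicate 3, at 192 and 45.3 CPM.

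**Figure D3:**
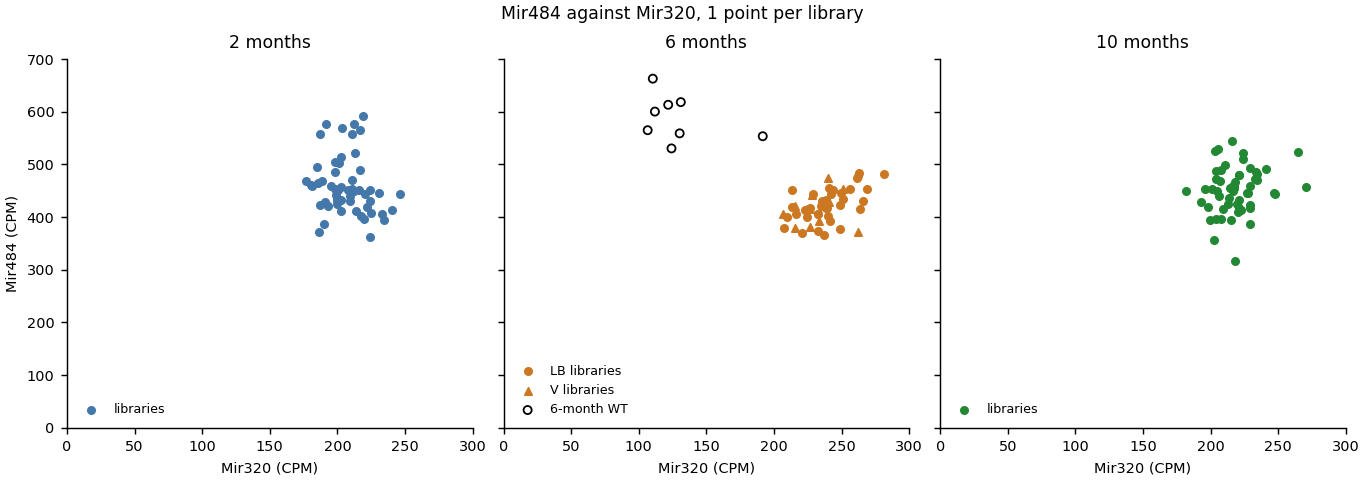
Mir484 against Mir320 in CPM, 1 point per library, in 3 panels by age on the same axes from 0. The open 6-month WT points sit to the upper left of every other 6-month library, at Mir484 to Mir320 read ratios of 2.89 to 6.00. Triangles mark 6-month libraries with the code V.

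The first question was whether the members move with CAG length. Among the promoter-linked members, both Mir320 and Mir484 were lower with longer repeats when the 6- and 10-month Z statistics were combined, and neither intronic member passed the test. The 2 kinds of hairpin were not tested against each other. The combined Z of Mir484 was -3.25 (adjusted p = 0.0136, edgeR) and that of Mir320 -3.08 (adjusted p = 0.0218). It was 1.58 for Mir877 (adjusted p = 0.314) and -1.32 for Mir702 (adjusted p = 0.415). These 2 calls of 4 compare with 11.9% of all 327 microRNAs called at a false discovery rate of 0.05, and with 6.12% called lower. At 6 months, no Q80, Q92, Q140 or Q175 library shares a lane number with the Q20 libraries. Between these genotypes and Q20, CAG length and lane cannot be told apart at that age. Lane as a covariate was fitted at 2 and 10 months only, so the combined Z was not checked for lane. The differences are small on the scale of the levels, as follows.

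In the 16 controls at 10 months, Mir320 had a lowest, median and highest level of 193, 223 and 271 CPM. The 8 Q175 mice of that age had 182, 211 and 229 CPM, and the 8 Q140 mice 198, 210.1 and 219.7 CPM. The ranges overlapped, with 7 of 8 Q175 mice and 8 of 8 Q140 mice below the control median. The fitted difference was -0.11 ± 0.05 (log2, SE) for Q175 and -0.11 ± 0.05 for Q140, with adjusted p-values of 0.186 and 0.383. At 6 months the 8 Q20 controls had 209.7, 241 and 282 CPM and the Q175 mice 207, 228 and 262 CPM, a difference of -0.09 ± 0.07 (adjusted p = 0.535). No Q20 library has the code V, and the code is a covariate at this age. Fitted 6-month differences from controls, here and below, therefore rest on the LB libraries of each mutant genotype, while the levels cover all 8 mice. At 2 months the Q175 mice, at 180.3, 203 and 220.3 CPM, differed by -0.03 ± 0.05 (adjusted p = 0.948) from controls at 177, 209 and 233 CPM.

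Mir484 had 357, 463.6 and 529 CPM in the 10-month controls. It had 395, 425 and 489 CPM in the Q175 mice and 316, 422 and 498 CPM in the Q140 mice of that age. Again 7 of 8 mice of either genotype were below the control median and the ranges overlapped. The fitted differences were -0.11 ± 0.06 for Q175 (adjusted p = 0.219) and -0.12 ± 0.07 for Q140 (adjusted p = 0.547). At 6 months controls had 377, 418 and 481 CPM and Q175 mice 370.4, 411 and 431 CPM, a difference of -0.08 ± 0.06 (adjusted p = 0.570). At 2 months the Q175 difference was -0.09 ± 0.07 (adjusted p = 0.836).

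With CAG length as a number, Mir320 changed by -0.06 ± 0.03 (log2 per 100 repeats, SE) at 6 months and by -0.06 ± 0.02 at 10 months, with adjusted p-values of 0.272 and 0.109. Mir484 changed by -0.09 ± 0.03 and -0.07 ± 0.03, with adjusted p-values of 0.132 and 0.190. At 2 months the values were -0.01 ± 0.03 for Mir320 and -0.05 ± 0.04 for Mir484. At single ages edgeR called 0 of the 4 members, where it called 0.0%, 2.75% and 8.84% of all microRNAs at 2, 6 and 10 months. At an unadjusted p under 0.05 there were 0, 1 and 2 members, with 3.98%, 20.2% and 22% of all microRNAs, and DESeq2 called 0, 0 and 1, the 1 being Mir320 at 10 months (adjusted p = 0.0399). DESeq2 called 0%, 3.06% and 9.15% of all microRNAs.

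Both calls of the meta-analysis were lost without the Q175 mice, a fit with fewer mice and a shorter range of repeats. The Z was then -1.61 for Mir320 (adjusted p = 0.550) and -1.51 for Mir484 (adjusted p = 0.591), and 4 microRNAs of all were called in place of 39. With only the LB libraries at 6 months Mir320 had a Z of -2.75 (adjusted p = 0.0502), and Mir484 kept its call at -2.87 (adjusted p = 0.0381). That setting called 11.6% of all microRNAs. With the 6-month WT mice as added controls the Z of Mir320 turned to 0.45 (adjusted p = 0.764) and that of Mir484 was -5.18. The choice to leave these mice out had drawn on their levels of the same members. Across the Q175 mice at 10 months the summed neuron markers (6 of 9 listed were in the table) were 79526 to 91004 CPM against 83107 to 102525 in controls, and the 4 choroid plexus markers 2673 to 3298 against 2607 to 12204 CPM. The leukocyte markers were at 1815 to 2746 against 1595 to 2793 CPM and the blood marker at 37.3 to 48.8 against 36.3 to 58.5. The liver marker was at 0.419 to 6.97 against 0.432 to 9.46 CPM and the muscle marker at 0 to 0.665 against 0 to 0.260. In the meta-analysis Mir124a-2 (Z = 1.01) and Mir211 (Z = 1.55) were positive. All other neuron and choroid plexus markers were negative. The part of these markers in the result was not tested.

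**Figure D4:**
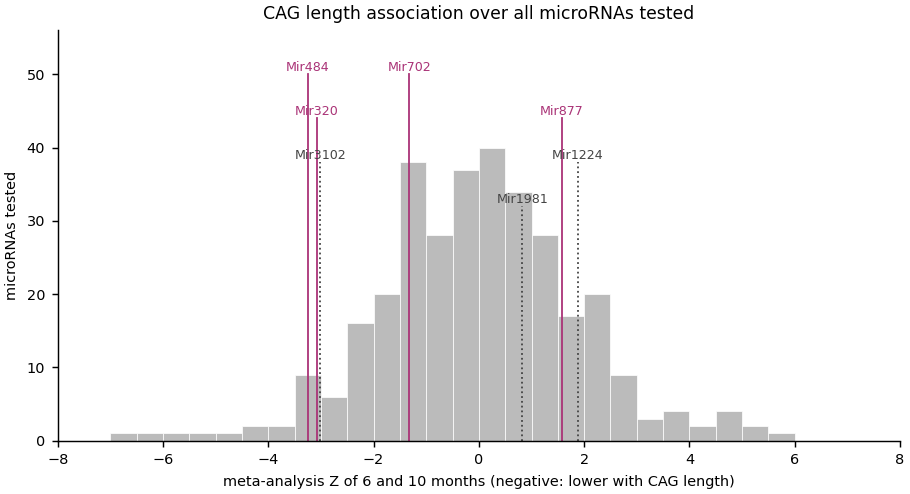
Histogram of the meta-analysis Z of CAG length for all 327 microRNAs tested (horizontal axis Z, vertical axis number of microRNAs per bin), with solid lines at the 4 members and dotted lines at 3 other intron-filling hairpins. Mir484 (-3.25), Mir320 (-3.08) and Mir3102 (-3.01) lie close together on the lower side, and Mir877 (1.58) and Mir702 (-1.32) lie nearer to 0.

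The intronic members did not pass any genotype test. Mir877 had 46.5, 56.4 and 63.2 CPM in the 10-month controls and 47.6, 59.0 and 64.5 CPM in the Q175 mice, with 6 of 8 mice above the control median and a difference of 0.05 ± 0.06 (95% interval -0.07 to 0.17). At 6 months the Q20 controls had 37.6, 43.1 and 50.5 CPM. All 8 Q140 mice, at 47.9, 53.2 and 55.6 CPM, and all 8 Q80 mice, at 44.3, 48.9 and 58.8 CPM, were above the control median, though both overlapped the controls. The Q140 difference of 0.22 ± 0.07 had the smallest unadjusted p of the 60 contrasts of a mutant genotype with controls, 0.00375, and an adjusted p of 0.303. At 6 months no Q80, Q92, Q140 or Q175 library shares a lane number with the Q20 libraries, so these genotypes and lane cannot be told apart there. Per 100 repeats Mir877 changed by 0.02 ± 0.04, 0.08 ± 0.05 and 0.02 ± 0.03 at 2, 6 and 10 months.

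Mir702, at 0.472, 1.89 and 3.03 CPM in the 10-month controls, had 0.628, 1.35 and 2.99 CPM in Q175 and 0.271, 1.26 and 2.22 CPM in Q140 mice. Its Q140 difference at 10 months was -0.53 ± 0.27 (adjusted p = 0.475) and that of Q175 -0.21 ± 0.27 (adjusted p = 0.683). At 6 months the Q140 difference was -0.77 ± 0.43, the lowest value of any member in any contrast, with an adjusted p of 0.615. It rests on the Q140 libraries with the code LB. The Q140 library with the highest Mir702 value, at 3.17 CPM, has the code V. Standard errors for Mir702 in the 15 contrasts ran from 0.16 to 0.54 on the log2 scale, against 0.05 to 0.07 for Mir320, so a difference of the size seen for Mir320 was not detectable in Mir702 at this depth.

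In all, 60 contrasts of a mutant genotype with controls were fitted for the 4 members (5 genotypes, 3 ages), and edgeR called 0 of them. At an unadjusted p under 0.05 there were 7, of which 5 were for Mir320 and 2 for Mir877, and DESeq2 called 0. In the same 15 comparisons edgeR called 12.2% of microRNAs for Q175 at 10 months, 2.77% for Q175 and 0.311% for Q92 at 6 months, and 0.0% in the other 12. DESeq2 called 0.612%, 2.75%, 0%, 0.307% and 0% for Q80, Q92, Q111, Q140 and Q175 at 2 months. In the same order DESeq2 called 0%, 0.932%, 0%, 1.55% and 3.08% at 6 months and 0%, 0%, 0.306%, 0.306% and 12.8% at 10 months. The unadjusted rule took 8.26%, 14.7%, 4.91%, 2.45% and 5.81% of microRNAs for Q80, Q92, Q111, Q140 and Q175 at 2 months. In the same order it took 6.48%, 9.63%, 3.07%, 7.43% and 15.7% at 6 months and 1.23%, 7.01%, 6.42%, 10.7% and 25.4% at 10 months. The 5 for Mir320 did not all point one way: Q80 at 2 months was higher by 0.12 ± 0.05, and Q92 at 2 months and Q92, Q140 and Q175 at 10 months were lower, by values from -0.10 to -0.11. Mir320 was negative in 9 of 15 contrasts, Mir484 in 9, Mir702 in 10 and Mir877 in 5. The range of each mutant group overlapped that of its controls for every member, and among all microRNAs it did not for 0.31% in Q140 and 0.923% in Q175 at 6 months, 1.83% in Q175 at 10 months and 0.0% in the other 12 comparisons. All contrasts of an age share their control mice.

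**Figure D5:**
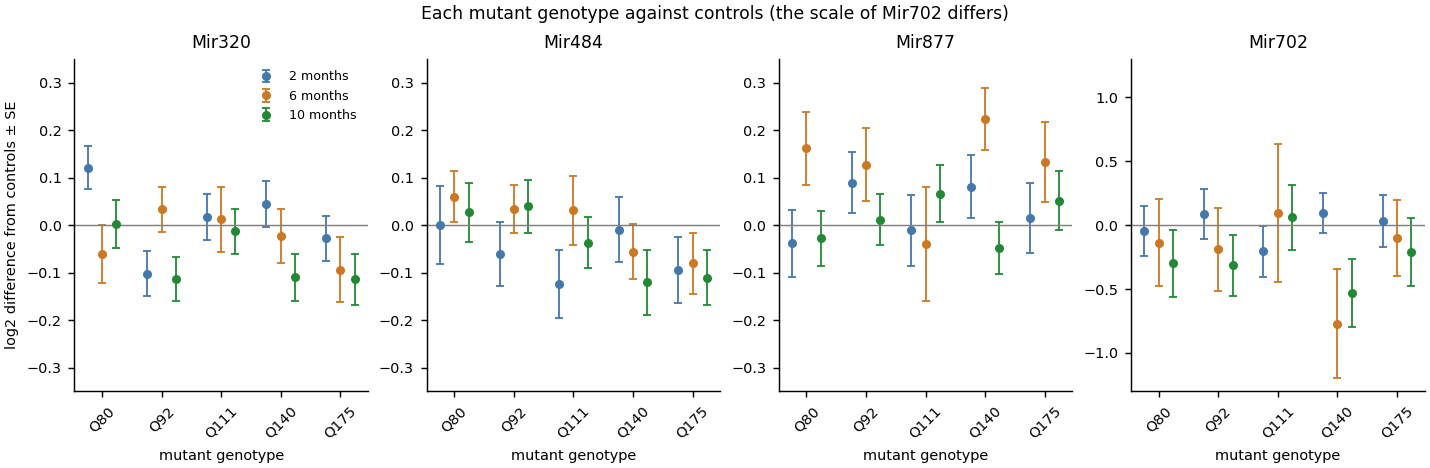
Log2 difference of each mutant genotype from the controls of the same age, with SE, for each member (note the wider vertical scale of Mir702). At 10 months Mir320 lies at -0.11 in Q92, Q140 and Q175 mice and near 0 in Q80 and Q111, and no contrast passed the test.

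A test of any difference among the genotypes of an age, which does not assume a trend with length, gave its smallest p for Mir320. At 10 months Mir320 had an F of 3.48 (adjusted p = 0.0566), just over the threshold, and group means that ran from 209 ± 8.63 CPM in Q140 to 232 ± 19.9 CPM in Q20 mice (SD, n = 8). At 2 months its F was 3.02 (adjusted p = 0.328), with means from 193 ± 9.44 CPM in Q92 to 221 ± 13.2 CPM in Q80 mice. EdgeR called 0 of 4 members at each age, where it called 0.0%, 3.67% and 8.84% of all microRNAs, and 1 member had an unadjusted p under 0.05 at each age, with 11%, 17.7% and 24.4% of all microRNAs. These were Mir320 at 2 and 10 months and Mir484 at 6 months (F = 2.57, adjusted p = 0.255). The order of genotypes by Mir320 level at 10 months was Q20, Q80, Q111, WT, Q175, Q92, Q140, and neighbours in it differed by less than the SD between mice.

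The change in the effect of CAG length from 2 to 10 months was negative for all 4 members, from -0.01 ± 0.05 for Mir877 to -0.20 ± 0.19 for Mir702 (log2 per 100 repeats), with -0.07 ± 0.04 for Mir320 and -0.02 ± 0.05 for Mir484. EdgeR called 0 of the 4, with 0 at an unadjusted p under 0.05 and 0 by DESeq2. Of all microRNAs edgeR called 1.83% and DESeq2 1.22%, and 11.9% had an unadjusted p under 0.05 with edgeR. Over all microRNAs 169 of 328 were negative.

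The 3 further intron-filling hairpins did not move as a group. Mir3102, which shares the miR-702-5p seed, was called lower with CAG length in the meta-analysis (Z = -3.01, adjusted p = 0.0252), and Mir1224 (Z = 1.87, adjusted p = 0.207) and Mir1981 (Z = 0.83, adjusted p = 0.644) were not called, so 1 of 3 was lower and 0 higher. In the 10-month controls Mir3102 had 62.2, 73.6 and 110.8 CPM, and in the Q175 mice 45.5, 63.3 and 70.9 CPM. All 8 Q175 mice were below the control median, and the ranges overlapped. The Q175 difference was -0.30 ± 0.09 (adjusted p = 0.0376) and the change per 100 repeats -0.14 ± 0.05 (adjusted p = 0.0351) at 10 months. The size of that difference was not tested against that of Mir702, the other bearer of the seed, whose value has the wider error given above. In the 6-month WT libraries Mir3102 had 33.6, 36.5 and 68.1 CPM and Mir1224 45.6, 50.4 and 66.99 CPM, against Q20 medians of 64.4 and 81.9. Mir1981 was at 105, 115 and 130.04 CPM with a Q20 median of 95.2.

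Between 2 and 10 months, Mir320 rose and Mir702 fell, and Mir484 and Mir877 did not pass the test. Mir320 went from 207 ± 15.7 CPM at 2 months to 219 ± 16.2 CPM at 10 months (SD, n = 56 each), a difference of 0.08 ± 0.02 (log2, SE, adjusted p = 0.000172). Without the composition factor, on library size alone, that difference was -0.000967 and no longer passed the test (adjusted p = 0.971), while Mir484 passed at -0.10 (adjusted p = 0.00110). With all transcripts as features it was 0.04 (adjusted p = 0.108). Mir702 went from 2.12 ± 0.677 to 1.62 ± 0.710 CPM, a difference of -0.38 ± 0.11 (adjusted p = 0.00103). In the control mice alone its difference was -0.20 (adjusted p = 0.346), while that of Mir320 was 0.14 (adjusted p = 0.00621). Mir484 differed by -0.03 ± 0.03 (95% interval -0.08 to 0.03) and Mir877 by 0.02 ± 0.03 (95% interval -0.03 to 0.07). These 2 calls of 4 stand beside 66.2% of all 328 microRNAs called between these ages, 34.5% lower and 31.7% higher. The 2 ages were run in separate sets of libraries, and age and run cannot be told apart. The median composition factor was 1.05 at 2 months and 0.997 at 10 months. Of the other intron-filling hairpins Mir1224 was higher at 10 months by 0.29 ± 0.02 (adjusted p = 7.94e-23), Mir1981 lower by a value of -0.06 ± 0.02 (adjusted p = 0.00533) and Mir3102 was at -0.05 ± 0.04 (adjusted p = 0.243).

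Neither sex nor Q20 against WT at 2 and 10 months gave a call. Of 12 contrasts of females with males (4 members, 3 ages) edgeR called 0, with 0.612%, 0.306% and 0.305% of all microRNAs called at 2, 6 and 10 months, and 1 had an unadjusted p under 0.05, Mir484 at 10 months (-0.08 ± 0.04, adjusted p = 0.726). The unadjusted rule took 7.65%, 9.79% and 6.4% of all microRNAs. Of 8 contrasts of Q20 with WT mice at 2 and 10 months edgeR called 0, with 0.0% of all microRNAs called, and 0 had an unadjusted p under 0.05, against 4.29% and 3.69% of all. DESeq2 called 0 in both families. Of all microRNAs it called 0.612%, 0.306% and 0.305% for sex at 2, 6 and 10 months and 0% for Q20 against WT at either age. The Q20 minus WT values lay between -0.05 and 0.08 for Mir320, Mir484 and Mir877 and were 0.08 ± 0.21 and 0.36 ± 0.28 for Mir702.

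Within genotypes the members shared little of their variation from mouse to mouse, with 1 exception among 18 pairings (6 pairs, 3 ages). Mir320 and Mir484 rose and fell together across the 37 LB libraries at 6 months without WT mice, after the mean of each genotype was subtracted (Pearson r = 0.60, adjusted p = 0.00108; Spearman rho = 0.64, adjusted p = 0.00072, permutation tests). Without the 2 libraries farthest from the median of Mir320 the r was 0.52. The same pair had r = -0.22 (adjusted p = 0.375) over 56 libraries at 2 months and r = 0.07 (adjusted p = 0.803) over 56 at 10 months. The difference between ages was not tested. The other pairs had r between -0.14 and 0.33, with adjusted p-values from 0.101 to 0.926. For scale, the middle 90% of all 24090 pairs of microRNAs with at least 10 CPM lay between -0.39 and 0.48 at 6 months, and the libraries share their depth and composition factor.

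The microRNAs most like each member across the 160 libraries, after the mean of each genotype, age and library code was subtracted, were chosen as the highest Pearson r among 219 others of at least 10 CPM. For Mir320 they were Mirlet7i (r = 0.47), Mir103-2 (r = 0.46) and Mir138-1 (r = 0.41). For Mir484 they were Mir29a (r = 0.59), Mir150 (r = 0.58) and Mir27a (r = 0.52). For Mir877 they were Mir1249 (r = 0.47), Mir331 (r = 0.43) and Mir3102 (r = 0.38), the last also an intron-filling hairpin. Mir702 is below that level and was not ranked. These values are descriptions over libraries that share runs and normalization.

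The tissue label was set against 6 marker lists, none of which tells cortex from other brain regions. Neuronal microRNAs were abundant, at 68428 to 132602 CPM in sum, while the single liver marker in the table, Mir122, stayed at or below 51.3 CPM and the single muscle marker, Mir206, at or below 0.936 CPM. Mir144, the 1 blood marker of 5 in the table, was at 22.2 to 74.0 CPM, and the 3 of 7 leukocyte markers summed to 1059 to 4130 CPM, in which Mir150 is the microRNA listed above as similar to Mir484. The 4 choroid plexus markers summed to 2047 to 12204 CPM, a wide spread between libraries. In the 6-month WT libraries the neuronal sum averaged 102432 CPM, above the 20 other group means of 72518 to 95850, and the leukocyte sum averaged 1195, below those of 1506 to 2397. Mir144 averaged 58.2 CPM, above those of 32.6 to 49.0, and Mir206 0.0169 CPM, below those of 0.0252 to 0.509. The choroid plexus sum, at 3172 CPM, and Mir122, at 7.14 CPM, lay within the other group means. The part of these markers in the levels of the members was not tested.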

How the data were processed

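Small RNA from cortex was sequenced as 36-base reads. The authors clipped the reads, aligned them to mm10 with STAR and, per the labels, used CASAVA 1.8.2. The study's methods name HTSeq, with no version given in the sources used here. The authors deposited each expected count per Ensembl transcript without normalization, and 48.1% of the values above 0 are not whole. Those of the 4 members are whole in all libraries. Counts were rounded. A deposited FPKM table was not used. Totals ran from 2041741 to 11646287 per library, which sets the precision.

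Differences were tested by the quasi-likelihood F test of edgeR 4.0.16 (R 4.3.3, robust) after TMM scaling. Covariates were sex and, for the 6-month mice, the code in the library name (11 libraries V, the others LB). All V libraries came from Q80, Q111, Q140 or Q175 mice and none from Q20 mice. The 6-month contrasts of these genotypes with controls therefore rest on their LB libraries. In 2 libraries the label and the cage gave another sex, and that of the cage was used. The 6-month WT libraries were left out of tests. Adjusted p-values (Benjamini-Hochberg) run over all microRNAs of the study's list with a transcript and at least 1 count (329 of 480 had a transcript), at a threshold of 0.05. The meta-analysis Z is the sum of the Z of 6 and 10 months divided by the square root of their number. CAG length was 7 for WT. Intervals are 95%, from the SE. Co-variation used log2(CPM + 0.5). No 2 libraries held identical counts. Code was tested on simulated counts.

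Named microRNAs were the 4 members, 4 other Drosha-independent hairpins and the 3 most similar to each abundant member. Members, lists and tests were chosen with earlier results of these data known. Alternatives were RLE and library-size scaling, DESeq2 1.42.0, filterByExpr, all transcripts, the labels' sex, a block on sex and replicate number, added 6-month WT mice, no library code, LB libraries only, lane, Q20 controls alone, no Q175 mice, 1 fit per age and controls only. The setting with LB libraries only could change the 6-month contrasts with controls little, because no Q20 library has the code V. Leaving out both Q140 and Q175 mice was chosen after seeing the data.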

Additional observations from a re-analysis of the deposited data

Results flagged for a closer look

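In 6 of the 84 groups of 8 libraries (4 members, 21 groups), 1 library stood away from the other 7 by more than Dixon's 95% limit of 0.526 of the group's range. Chance flags about 1 in 20 groups. Mir320 stood out high in 10-month Q111 male replicate 2 at 247 CPM (next 229), in 10-month Q80 male replicate 4 at 265 CPM (next 233) and in 6-month WT female replicate 3 at 192 CPM (next 131), where the other 7 WT libraries lay lower still. Mir484 was high in 2-month Q140 male replicate 4 at 569.8 CPM (next 485). Mir702 was high in 6-month Q140 male replicate 2 at 3.17 CPM (next 1.28) and low in 2-month Q92 male replicate 4 at 0.560 CPM (next 2.00), both at a few reads per library.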

How the results depend on the processing

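Of the recomputed values and counts of calls, 562 stayed the same, 10 newly passed the threshold, 6 no longer did, 26 counts or values moved and 27 changed sign. A value stayed the same when it kept its direction and its side of the threshold. A count of calls stayed the same when it changed little or not at all. Members called in the meta-analysis numbered 2 (11.9% of all microRNAs called), but 1, Mir484, with LB libraries only (11.6%), where Mir320 was at Z = -2.75. They numbered 0 without the Q175 mice (1.22% of all called, with Z of -1.61 for Mir320 and -1.51 for Mir484). They also numbered 0 without Q140 and Q175 mice (0% of all called, with Z of -0.48 and 0.72), where fewer samples entered. Adding 6-month WT mice turned Mir320 to Z = 0.45 and brought Mir877 to 3.32, with 111 calls over all microRNAs in place of 39. For CAG length at 6 months it called 3 members (Mir320, Mir484 and Mir877), with 0.25 for Mir320, put Mir702 at 0.13, and gave over all microRNAs 156 calls (47.7%) in place of 9. The Q140 and Q175 contrasts of that age were then 0.33 and 0.26 for Mir320 and 0.27 for Mir702 in Q175. At 10 months 1 member, Mir320, passed for CAG length with library size alone (8.84% of all microRNAs called) and with DESeq2 (9.15%). It was also the 1 member that passed for any genotype difference with library size alone (7.93%), filterByExpr (11.5%) and the labels' sex (9.45%). With library size alone Mir877 had -0.00383 per 100 repeats at 10 months, and the age difference was -0.000967 for Mir320 and -0.0591 for Mir877, while the median over all microRNAs moved from -0.02 to -0.09 and the share of higher calls from 47.9% to 35.1%. For CAG length at 10 months that share went from 58.6% to 37.9%. For age, 1 member was called with all transcripts (Mir702, with 25.1% of all called) and 1 in controls only (Mir320, with 49.4%), and with all transcripts Mir877, not called, was at -0.0181. All transcripts as features, a larger number tested, gave 366 calls for age in place of 217 (25.1% in place of 66.2%). They gave 26 for Q175 at 10 months in place of 40 (2.18% in place of 12.2%). For CAG length at 6 months they gave 20 in place of 9 (1.54% in place of 2.75%). The count for CAG length at 6 months was 15 without the library code, 3 with LB libraries only and 0 without the Q175 mice. Without these mice CAG length at 10 months had 1 call in place of 29, and 0 without Q140 and Q175 mice.

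Values near 0 also changed sign. For CAG length at 2 months Mir320 was at 0.000368 with RLE, 0.0191 without Q175 and 0.00560 without Q140 and Q175 mice, Mir877 at -0.0101 and Mir702 at -0.0103 with lane, and Mir702 at -0.0836 without Q140 and Q175 mice, which also put Mir484 at 0.0339 and 0.0195 at 6 and 10 months. For Q175 at 2 months Mir877 was at -0.0334 with lane and Mir702 at -0.0193 with Q20 controls, and at 6 months Mir702 was at 0.18 without the library code. Of the co-variation, 5 pairs passed with library size alone in place of 1. Mir484 with Mir702 at 10 months turned to 0.0581 there, and with RLE Mir320 and Mir484 with Mir877 at 6 months turned to -0.0123 and -0.0286.

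Replicate numbers of the titles did not pair the libraries: same-numbered libraries of different genotypes had a median correlation of deviations of -0.11, 0.15 and 0.04 at 2, 6 and 10 months, and 6 of 56, 7 of 37 and 5 of 56 libraries correlated best with their own number. With the replicate block Mir484 was at Z = -3.15 and Mir320 at -2.90, and 2 members remained called there and for age, with 12.8% and 66.8% of all microRNAs called. The block put Mir320 in Q140 at 0.00290 and Mir702 in Q175 at 0.20 at 6 months, and gave 15 calls over all microRNAs for CAG length at 6 months in place of 9. The causes of these changes were not tested. Depth limits Mir702 most, with 1 to 21 reads per library.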
